A study of Gallus gallus with 60 samples.

Results

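OTOL1, TECTB, TECTA and OTOA encode proteins that form or attach the acellular material that covers the sensory cells of the inner ear. Otolin 1 belongs to otoconia, the mineral particles, and the tectorins belong to gelatinous membranes. Otoancorin attaches such membranes to non-sensory cells. The 4 genes were taken by name from a table of 17684 gene rows, and each had 1 row. They were chosen with earlier results of these data known, among them a higher mean of OTOL1 in treated than in control samples. Gene expression was measured by RNA sequencing of chicken (Gallus gallus) utricles, one of the vestibular organs, which were dissected and given streptomycin for 24 h before a recovery period. Streptomycin is an aminoglycoside antibiotic that kills hair cells, and the series compared treated with control utricles to follow hair cell regeneration. Samples carried the times 0, 24, 48, 54, 60, 66, 72, 96, 120, 144 and 168 h, with 28 treated and 28 control biological samples, 2 to 4 in each of 22 groups. The labels did not give the event from which the hours were counted, the breed or age of the birds, or the number of utricles in a sample.

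The otolithic membrane of the utricle lies over the hair bundles, and the otoconia on it give it the mass by which linear acceleration deflects the bundles. Otolin 1 is a collagen-like protein of the organic matrix of otoconia. Beta-tectorin and alpha-tectorin are zona pellucida domain glycoproteins of the otolithic membrane and of the tectorial membrane of the auditory organ. Otoancorin, known from the mouse inner ear, attaches such gels to the surface of non-sensory cells. These proteins are made largely by supporting cells and other non-sensory epithelial cells, not by hair cells.

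The libraries held between 1486991 and 40331879 alignments, with a median of 21154441, and 7 of 60 held fewer than 5000000. The summed level of 15 hair cell markers ranged from 1591 to 2283 RPKM (read counts divided by gene length and library size) in the 6 control samples at 0 and 24 h and from 295 to 479 RPKM in the 6 treated ones, so the treated samples were already low at the first labelled times. Over all times 14 of the 15 hair cell markers were lower and 1, ATOH1, was higher with treatment, and the median difference was -1.85 on the log2 scale. Of all rows tested 12.5% were called lower and 18.5% higher in that comparison. One control sample, replicate 3 at 168 h, held the deepest library and had the lowest level of all 4 genes among the control samples. Its marker sums were also the lowest among the 11 control samples at 96 to 168 h for hair cells (570 RPKM), supporting cells (515), ion-transporting epithelium (35.7), stroma (49.2), cartilage (5.27), neurons with glia (44.0) and erythroid cells (1.73), while that of leukocytes was 92.5. Every comparison of the main limma fit was also fitted without it, but the alternative fits were not.

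Over the 11 times OTOL1, TECTB and OTOA were higher in treated than in control utricles, and TECTA was not past the threshold. The mean difference was 1.5 ± 0.24 on the log2 scale (± SE) for OTOL1, a 2.83-fold difference with a limma adjusted p of 3.64e-06. It was 0.68 ± 0.13 for TECTB (adjusted p = 4.33e-05) and 0.56 ± 0.14 for OTOA (adjusted p = 0.0013). For TECTA it was 0.20 ± 0.17 (adjusted p = 0.409), with a 95% interval from -0.14 to 0.54. By the same test 18.5% of the 13862 rows tested were higher, so 3 of 4 genes stood against a background in which such calls were common. By size OTOL1 had rank 6 among the 2570 rows called higher. The treated sample was the higher one in 24 of 28 same-numbered pairs for OTOL1, 21 for TECTB, 20 for OTOA and 17 for TECTA. Leaving out all samples numbered 2 ended the calls of TECTB (adjusted p = 0.0598) and OTOA (adjusted p = 0.127).

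**Figure D1:**
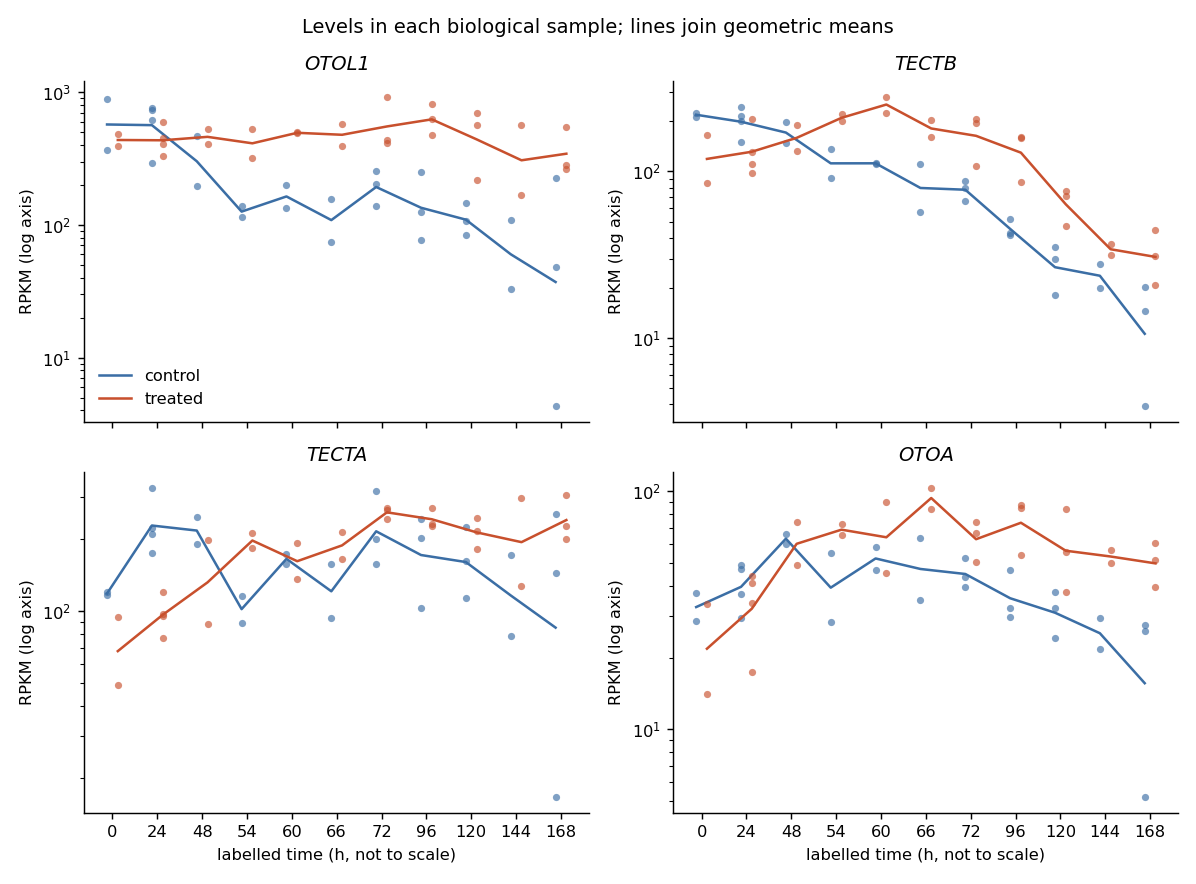
Level of each gene in RPKM (log axis) in every biological sample by labelled time, control in blue and treated in red, with lines through the geometric means. OTOL1 and TECTB fell in the control samples. From 54 h on every treated sample lay above every control sample of the same time for both genes, as in 5.71% (168 h) to 31.7% (66 h) of all rows. The lowest control point at 168 h is replicate 3.

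OTOL1, the otoconial matrix gene, fell in controls and lay between 167 and 928 RPKM in treated utricles at all times. In control samples OTOL1 measured 894 and 365 RPKM at 0 h, 758, 622, 735 and 294 at 24 h, and 464 and 196 at 48 h. It then measured 139 and 115 RPKM at 54 h, 135 and 199 at 60 h, 158 and 74.7 at 66 h, and 203, 254 and 140 at 72 h. At the last 4 times the control values were 251, 126 and 77.1 RPKM at 96 h, 107, 147 and 83.3 at 120 h, 109 and 32.9 at 144 h, and 48.3, 227 and 4.3 at 168 h. No control sample from 54 h on exceeded 254 RPKM, below the lowest value of 0 and 24 h (294 RPKM).

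In treated samples OTOL1 measured 481 and 396 RPKM at 0 h, 448, 593, 408 and 328 at 24 h, 525 and 404 at 48 h, and 319 and 532 at 54 h. It measured 499 and 490 RPKM at 60 h, 576 and 397 at 66 h, 928, 415 and 437 at 72 h, and 809, 629 and 479 at 96 h. The last values were 697, 563 and 219 RPKM at 120 h, 562 and 167 at 144 h, and 285, 543 and 263 at 168 h. Treated and control ranges overlapped at 0, 24 and 48 h, and all treated samples exceeded all control samples of their time at the 8 times from 54 to 168 h. All treated samples exceeded all controls in 26.6% of rows at 54 h, 27.6% at 60 h, 31.7% at 66 h and 10.7% at 72 h, and in 12.4% at 96 h, 9.58% at 120 h, 17.4% at 144 h and 5.71% at 168 h. In the order of mean levels, neighbouring times overlapped in range throughout for OTOL1, in both arms.

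TECTB, the beta-tectorin gene, fell in both arms, and less far in treated utricles. In control samples TECTB measured 225 and 212 RPKM at 0 h, 200, 242, 149 and 214 at 24 h, 197 and 148 at 48 h, and 137 and 91.0 at 54 h. It measured 111 and 113 RPKM at 60 h, 111 and 57.0 at 66 h, 79.9, 66.9 and 87.4 at 72 h, and 52.1, 41.4 and 42.7 at 96 h. The last control values were 18.1, 35.0 and 29.7 RPKM at 120 h, 28.01 and 19.97 at 144 h, and 20.3, 14.5 and 3.90 at 168 h. The mean control level was lower at each later time, from 219 ± 8.54 RPKM (SD, n = 2) at 0 h to 12.9 ± 8.31 (SD, n = 3) at 168 h. The ranges of neighbouring times did not overlap at the steps to 54, 96 and 120 h.

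In treated samples TECTB measured 85.4 and 165 RPKM at 0 h, 111, 98.3, 131 and 207 at 24 h, 133 and 190 at 48 h, and 220 and 200 at 54 h. It measured 281 and 225 RPKM at 60 h, 202 and 161 at 66 h, 207, 108 and 195 at 72 h, and 86.0, 160 and 157 at 96 h. The last treated values were 46.9, 76.7 and 70.9 RPKM at 120 h, 36.9 and 31.5 at 144 h, and 31.1, 20.8 and 44.6 at 168 h. The treated mean was highest at 60 h, at 253 ± 39.4 RPKM (SD, n = 2), where both treated values lay above all control values of 60 h. In the order of treated means, the ranges of neighbours did not overlap at 54 h (next below 60 h), 120 h and 144 h. Every treated sample lay below both control samples at 0 h and above every control sample of its time from 54 h on. Of all rows 21.1% were separated in that way at 0 h. From 54 h on the shares per time were those given for OTOL1, from 5.71% at 168 h to 31.7% at 66 h.

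TECTA, the alpha-tectorin gene, was lower in treated than in control samples at the first times. Control samples measured 120 and 117 RPKM at 0 h and 223, 209, 328 and 176 at 24 h. Treated samples measured 48.8 and 94.4 RPKM at 0 h and 77.4, 97.5, 95.3 and 120 at 24 h. All treated values lay below all control values at both times, as they did for 21.1% of all rows at 0 h and 5.19% at 24 h. From 48 to 72 h the control samples ranged from 89.4 to 317 RPKM (median 158, n = 11) and the treated ones from 87.9 to 269 (median 197, n = 11). Treated samples lay above all control samples at 54 and 66 h but not at 48, 60 or 72 h. Of all rows 26.6% were so separated at 54 h and 31.7% at 66 h. The control mean was lowest at 54 h, the only time whose range did not overlap that of the next higher mean in the order of TECTA levels.

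At the last times the arms of TECTA overlapped. Control samples measured 242, 201 and 103 RPKM at 96 h, 162, 224 and 113 at 120 h, 172 and 78.6 at 144 h, and 144, 254 and 16.6 at 168 h. Treated samples measured 226, 269 and 232 RPKM at 96 h, 246, 216 and 182 at 120 h, 297 and 127 at 144 h, and 226, 305 and 200 at 168 h. The treated sample was the higher of its pair in 9 of 11 pairs, and the ranges overlapped at each of the 4 times.

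OTOA, the otoancorin gene, had the lowest levels of the 4, between 5.17 and 104 RPKM. At 0 h its control samples measured 28.5 and 37.3 RPKM and its treated samples 14.1 and 33.6, and at 24 h the control samples measured 29.3, 46.9, 36.8 and 48.8 and the treated ones 17.4, 41.0, 33.8 and 43.9. The ranges overlapped at both times, although the treated sample was the lower of its pair in 6 of 6 pairs. From 48 to 72 h the control samples ranged from 28.1 to 66.4 RPKM (median 52.4, n = 11) and the treated ones from 45.4 to 104 (median 72.7, n = 11).

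At the last times OTOA was separated between the arms. Control samples measured 46.4, 29.7 and 32.4 RPKM at 96 h, 24.2, 37.66 and 32.3 at 120 h, 21.8 and 29.4 at 144 h, and 27.5, 25.8 and 5.17 at 168 h. Treated samples measured 53.8, 87.8 and 84.7 RPKM at 96 h, 37.74, 84.6 and 55.6 at 120 h, 56.6 and 49.9 at 144 h, and 51.3, 39.4 and 60.8 at 168 h. All treated samples exceeded all control samples of their time at these 4 times and at 54 and 66 h, 6 of 11 times in all. At 120 h the arms barely separated, with 37.74 RPKM in treated replicate 1 and 37.66 in control replicate 2. Of all rows 26.6% did so at 54 h, 31.7% at 66 h and 12.4% at 96 h. The shares were 9.58% at 120 h, 17.4% at 144 h and 5.71% at 168 h. In the order of OTOA levels only the control means of 48 and 60 h were neighbours with ranges that did not overlap.

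The treatment effect was then taken over 3 windows, 0 and 24 h, 48 to 72 h and 96 to 168 h. At 0 and 24 h none of the 4 genes passed the threshold, at which 5.98% of rows were called lower and 6.77% higher. The log2 differences were -0.38 ± 0.53 for OTOL1 (limma adjusted p = 0.726), -0.74 ± 0.28 for TECTB (0.0786), -1.02 ± 0.38 for TECTA (0.0706) and -0.44 ± 0.30 for OTOA (0.398). With the 28 same-numbered pairs as a block TECTA was called lower (adjusted p = 0.0227), as 23.1% of rows were called in either direction. The TECTA call was also made without treated replicate 2 at 0 h (0.0492), or without control replicate 2 (0.0352) or 3 (0.00528) at 168 h. TECTB was called lower without treated replicate 2 at 0 h (0.0361), treated replicate 4 at 24 h (0.0414) or control replicate 3 at 168 h (0.0276). The 168 h samples are not part of this comparison. Without control replicate 3 at 168 h the differences stayed at -1.02 and -0.74, and the SE was 0.26 for TECTA and 0.23 for TECTB. Without all samples numbered 3 the TECTA difference was -0.93.

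At 48 to 72 h OTOL1 and TECTB were higher in treated utricles, 2 of 4 genes against 9.13% of all rows. The difference was 1.51 ± 0.38 for OTOL1 (adjusted p = 0.00278, higher in 11 of 11 pairs) and 0.84 ± 0.20 for TECTB (adjusted p = 0.00152, higher in 10 of 11 pairs). OTOA differed by 0.50 ± 0.21 (adjusted p = 0.107) and TECTA by 0.22 ± 0.27 (adjusted p = 0.664). OTOA was called without control replicate 3 at 168 h (adjusted p = 0.037). That sample is not part of this comparison, and the difference stayed at 0.50 with an SE of 0.17. The OTOL1 call was lost without all samples numbered 1 (0.078) or 2 (0.198), and the TECTB call without those numbered 2 (0.367).

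At 96 to 168 h all 4 genes were higher in treated utricles, against 9.65% of all rows. OTOL1 was 5.42-fold higher, a log2 difference of 2.44 ± 0.38 with adjusted p = 7.75e-06, rank 3 among the 1337 rows called higher. TECTB was 2.28-fold higher (1.19 ± 0.20, adjusted p = 2.88e-05) and OTOA 2.22-fold higher (1.15 ± 0.22, adjusted p = 1.55e-04), both in 11 of 11 pairs. TECTA was 1.72-fold higher (0.78 ± 0.27, adjusted p = 0.0385). Without control replicate 3 at 168 h the differences were 2.07 for OTOL1, 1.02 for TECTB, 0.96 for OTOA and 0.49 for TECTA, and the last was no longer called (adjusted p = 0.0671). The TECTA call was lost in 13 of 60 fits that left out samples, among them those without all samples numbered 1 (0.201), 2 (0.141) or 3 (0.255). The single samples were replicate 3 of control at 96 h (0.0847), replicates 1 (0.051) and 3 (0.0684) of control at 120 h, replicate 2 of control at 144 h (0.134), and, among treated ones, replicate 2 at 96 h (0.0586), 1 (0.0553) and 2 (0.0556) at 120 h, 1 at 144 h (0.154) and 2 at 168 h (0.0606), besides that control sample.

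**Figure D2:**
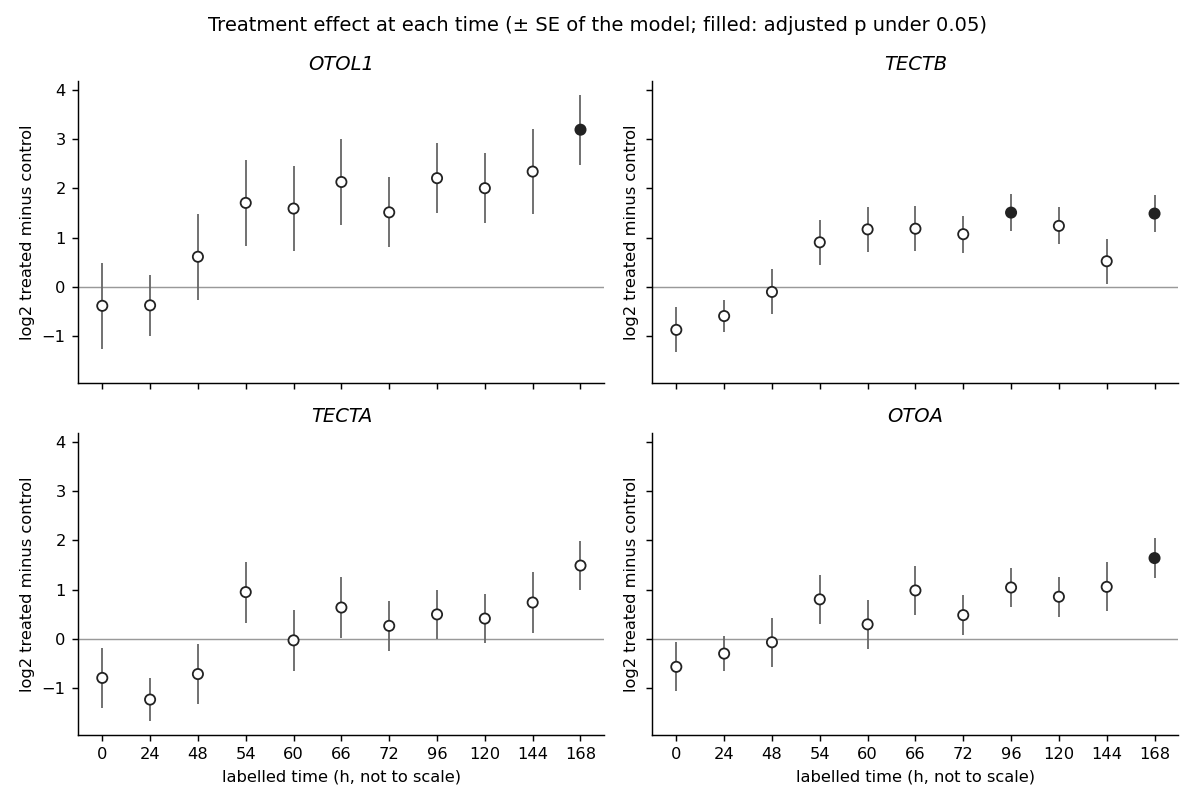
Treatment effect at each labelled time, as the log2 difference of treated minus control with the SE of the limma fit; filled points have an adjusted p under 0.05. All 4 genes start below 0, none of them called, and OTOL1 and OTOA changed sign at 0 h in fits without a single sample. OTOL1 reaches 3.19 at 168 h, or 1.71 (not called) without control replicate 3 of that time.

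At single times few of these effects passed the threshold. TECTB was called higher at 96 h (1.51 ± 0.37, adjusted p = 0.00943), where 1.85% of rows were called higher. OTOL1 (3.19 ± 0.71, adjusted p = 0.0115), TECTB (1.49 ± 0.37, adjusted p = 0.0298) and OTOA (1.64 ± 0.41, adjusted p = 0.0266) were called higher at 168 h, where 0.606% of rows were. None of these 3 calls at 168 h was made without control replicate 3 of that time: OTOL1 differed by 1.71 (adjusted p = 0.183), TECTB by 0.82 (0.322) and OTOA by 0.89 (0.307). The calls of TECTB and OTOA at 168 h were also lost without treated replicate 1 (0.116 and 0.108) or 3 (0.123 and 0.0787) of that time. Without all samples numbered 1, 2 or 3 none of these 3 calls was made either (adjusted p from 0.0964 to 0.741). The TECTB call at 96 h was lost without control replicate 3 (0.0505) or treated replicate 2 (0.0645) or 3 (0.0605) of that time, and without all samples numbered 2 (0.412) or 3 (0.113).

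With the pairs as a block OTOL1 was also called higher at 66 h (adjusted p = 0.0442), 96 h (0.00551) and 120 h (0.0168), and TECTB at 120 h (0.0483). TECTA was then called lower at 24 h (-1.24, adjusted p = 0.0175) and higher at 168 h (1.49, adjusted p = 0.0401). The TECTA difference at 168 h was 0.33 (adjusted p = 0.809) in the fit without the block that left out control replicate 3 of that time. In the fit with the block 23.8% of rows were called in either direction at 24 h, 4.76% at 66 h, 10.6% at 96 h, 6.64% at 120 h and 5.71% at 168 h. Single samples changed some of these calls in the fit without the block. Leaving out a 168 h sample does not change the difference at another time, only the shared estimate of the spread and the adjustment. Without control replicate 3 at 168 h OTOL1 was called at 96 h (0.00668) and 120 h (0.0252), TECTB at 72 h (0.034) and 120 h (0.016) and TECTA at 24 h (0.0036). Without control replicate 2 at 168 h OTOL1 was called at 96 h (0.015) and TECTA at 24 h (0.0259) and 168 h (0.00807), and without control replicate 1 at 168 h TECTB was called at 120 h (0.0412) and TECTA at 24 h (0.05, rounded up from below the threshold). OTOL1 was called at 96 h without control replicate 1 of that time (0.0405), and TECTA at 24 h without control replicate 4 (0.0482).

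The treatment effect itself changed between the first and the last window for all 4 genes. The effect at 96 to 168 h minus that at 0 and 24 h was 2.82 ± 0.65 for OTOL1 (limma adjusted p = 0.0057), 1.92 ± 0.34 for TECTB (5.58e-04), 1.80 ± 0.46 for TECTA (0.0122) and 1.58 ± 0.37 for OTOA (0.00662). These 4 of 4 calls compare with 3.9% of all rows called in that direction, and OTOL1 had rank 1 by size among those 540 rows. Such a rise was not particular to the 4 genes. Of the 15 hair cell markers 8 were called in the same direction and none in the other, with a median of 1.07 against -0.03 over all rows. Without treated replicate 1 at 0 h the calls of TECTA (0.104) and OTOA (0.0892) were lost. The calls of these genes were also lost without the samples numbered 1 or 2, in fits that left 1 sample in some groups. Without number 1 the differences were 2.56 for OTOL1, 1.85 for TECTB, 1.65 for TECTA and 1.45 for OTOA. Without number 2 they were 3.37, 2.12, 2.30 and 1.92. The OTOA call was lost as well without those numbered 3 (difference 1.36). An F test over all 11 times, which called 1.48% of rows, called TECTB (adjusted p = 0.0298) but not OTOL1 (0.421), TECTA (0.353) or OTOA (0.408), and with the pairs as a block OTOL1 was called as well (0.0329), among 4.17% of rows. Without control replicate 2 at 168 h OTOL1 (0.0167) and TECTA (0.034) were called. The TECTB call in this F test was lost in 11 of 60 fits that left out samples, with adjusted p up to 0.0949 when a single sample was left out, treated replicate 1 at 0 h.

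The change of the treatment effect equals the change in treated utricles minus the change in controls, and the 4 genes differed in which of these was large. The comparisons in this and the next 2 paragraphs share samples with those above. In controls TECTB fell by 3.12 ± 0.24 on the log2 scale from 0 and 24 h to 96 to 168 h (limma adjusted p = 4.41e-12), an 8.69-fold decline with rank 1 by size among 1687 rows called lower. OTOL1 fell by 2.90 ± 0.46 (adjusted p = 1.80e-05), a 7.45-fold decline with rank 2. Together 12.2% of rows were called lower in this comparison. TECTA differed by -0.35 ± 0.33 (adjusted p = 0.495) and OTOA by -0.48 ± 0.26 (adjusted p = 0.212). Without control replicate 3 at 168 h the values were -2.95 for TECTB, -2.53 for OTOL1, -0.06 for TECTA and -0.29 for OTOA, and the calls of TECTB and OTOL1 held.

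The control decline was then taken in steps between the windows. The mean control level of OTOL1 was 602 RPKM at 24 h, 330 at 48 h and 127 at 54 h. From 54 to 168 h its control means lay between 71.2 and 199 RPKM. From 0 and 24 h to 48 to 72 h OTOL1 fell by 1.76 ± 0.46 (adjusted p = 0.0127) and TECTB by 0.98 ± 0.24 (adjusted p = 0.00902), where 3.92% of rows were called lower. Neither was called without control replicate 1 at 0 h (0.231 and 0.093) or without all samples numbered 1 (0.377 and 0.101) or 2 (0.248 and 0.457). From 48 to 72 h to 96 to 168 h TECTB fell by a further 2.14 ± 0.20 (adjusted p = 4.68e-09) and OTOA by 0.91 ± 0.22 (adjusted p = 0.00753), where 6.45% of rows were called lower. The OTOA call was lost without all samples numbered 1 (0.432) or 2 (0.0701). OTOL1 fell by 1.14 ± 0.38 in that step (adjusted p = 0.0468), a call lost in 31 of 60 fits that left out samples. Among them were the fits without control replicate 1 at 66 h (0.107) or control replicate 3 at 168 h (-0.76, 0.0621). Others left out a single treated sample, which is not part of this comparison. The difference then stayed at -1.14, with adjusted p from 0.0503 to 0.0520. An F test over the 11 control times, which called 6.46% of rows, called TECTB (adjusted p = 6.34e-10) and OTOL1 (0.00316) but not OTOA (0.08) or TECTA (0.399). The OTOL1 call in this test was lost without all samples numbered 1 (0.468) or 2 (0.15), and OTOA was called without control replicate 1 (0.0358) or 2 (0.0448) at 168 h.

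In treated utricles TECTA and OTOA rose over the same span and TECTB fell. TECTA rose by 1.45 ± 0.33 from the first to the last window (adjusted p = 6.83e-04) and OTOA by 1.11 ± 0.26 (adjusted p = 0.00115), where 13.3% of rows were called higher. TECTB fell by 1.19 ± 0.24 (adjusted p = 1.98e-04), where 20.3% of rows were called lower. OTOL1 differed by -0.08 ± 0.46 (adjusted p = 0.923), with a 95% interval from -1.01 to 0.86. Without treated replicate 1 at 0 h the OTOA call was lost (0.0603). Without all samples numbered 1 the calls of TECTA (0.233) and OTOA (0.146) were lost, and without those numbered 2 that of TECTB (0.0665).

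**Figure D3:**
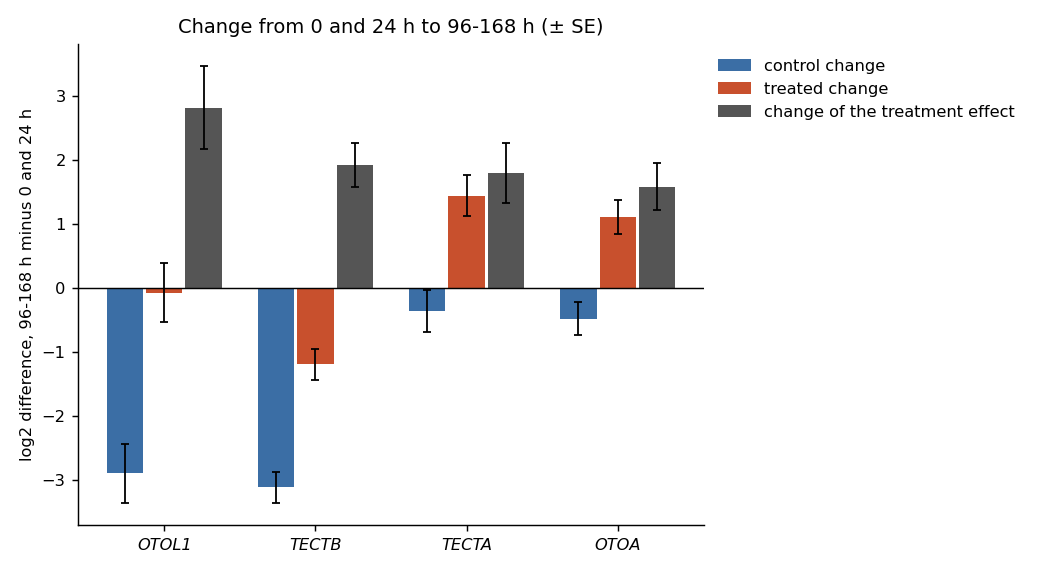
Change from 0 and 24 h to 96 to 168 h in control and treated utricles, and the change of the treatment effect (treated change minus control change), as log2 differences with SE bars. The change of effect of OTOL1 (2.82) and TECTB (1.92) stands beside control changes of -2.90 and -3.12, that of TECTA (1.80) and OTOA (1.58) beside treated changes of 1.45 and 1.11.

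Of 30 other genes listed for otoconia and acellular membranes, 21 had a row and 18 passed the filter on low values. Over the 11 times 6 of the 18 were called higher and 2 lower with treatment, against 18.5% and 12.5% of all rows. The median log2 difference was 0.29 against 0.06 over all rows. The 4 with the largest mean difference were ATP2B2, a plasma membrane calcium pump of hair bundles, at -0.86 ± 0.08, the type II collagen gene COL2A1 at 0.62 ± 0.20, the type IX collagen gene COL9A3 at 0.62 ± 0.13, and COCH, which encodes the secreted protein cochlin, at 0.57 ± 0.14.

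At 96 to 168 h the median of the 18 was 0.59 against 0.04 over all rows, of which 9.65% were called higher. In the limma fit 10 of the 18 were called higher and none lower. They included COL2A1 (1.12 ± 0.32), COCH (1.02 ± 0.22) and COL9A3 (0.86 ± 0.21). OC90, which encodes otoconin-90, a main otoconial matrix protein of mammals, was higher in treated samples by 0.89 ± 0.27 (adjusted p = 0.0182). SPARC, which encodes a calcium-binding matrix protein, was higher by 0.92 ± 0.18 (adjusted p = 2.78e-04). Both were named after their values were seen. The medians of OC90 in this window were 21.97 RPKM in control and 41.4 RPKM in treated samples (n = 11 each), and those of SPARC were 623 and 914 RPKM. At 0 and 24 h 2 of the 18 were called, both lower, against 5.98% of all rows. They were ATP2B2 (-1.26 ± 0.18) and FAM20C, a secretory pathway kinase gene (-0.37 ± 0.11). In the fit without control replicate 3 at 168 h 9 of the 18 were called higher at 96 to 168 h, with a median of 0.52. The share of all rows called in that fit is not given. The differences in it were 0.81 for COL2A1, 0.88 for COCH, 0.67 for COL9A3, 0.80 for OC90 and 0.73 for SPARC, each still called.

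TECTB and OTOL1 had ranks 1 and 2 by size of the control fall among all rows, so none of these 18 genes could have a larger one. The differences from them were not tested. In controls 3 of the 18 fell between the first and last windows, where 12.2% of all rows were called lower. COL2A1 fell by 1.45 ± 0.39 (adjusted p = 0.00688), COL11A1, a type XI collagen gene, by 0.91 ± 0.12 (4.37e-07), and FAM20C by 0.48 ± 0.09 (2.47e-04). COCH rose by 0.83 ± 0.27 (0.0234), where 7.24% of all rows were called higher. The median of the list was -0.08 against -0.04 over all rows. In treated utricles 6 of the 18 rose and 1 fell over the same span, against 13.3% and 20.3% of all rows. The treatment effect itself rose in 4, against 3.9% of all rows: SPARC (1.29 ± 0.31), ATP2B2 (0.996 ± 0.22), COL9A1 (1.31 ± 0.38) and COL11A1 (0.65 ± 0.16). With the pairs as a block it rose in 7, where 8.31% of all rows did.

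When control replicate 3 at 168 h was left out, in which COL2A1 was at 3.82 RPKM, the control fall of COL2A1 was 1.14 instead of 1.45, and those of COL11A1 (0.85) and FAM20C (0.45) and the rise of COCH (0.97) were called as well. The treatment effect then rose in 5 of the 18 genes, and 8 rose in treated utricles. The share of all rows called in that fit is not given, so these counts cannot be set against those of the main fit.

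**Figure D4:**
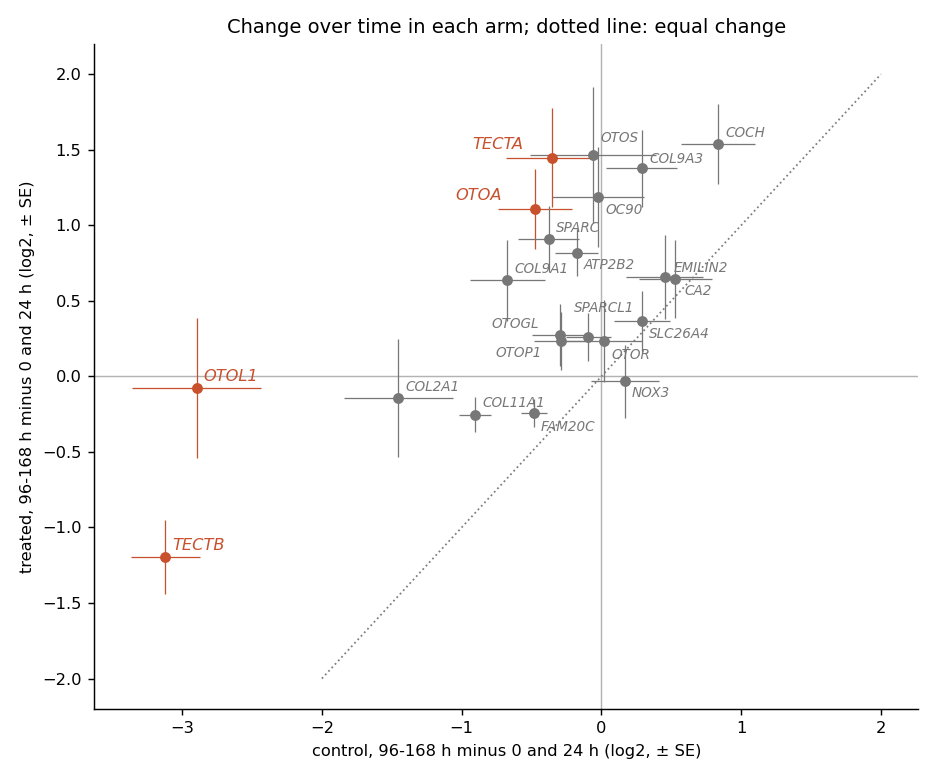
Change from 0 and 24 h to 96 to 168 h in control (horizontal) against treated utricles (vertical), as log2 differences with SE bars, for the 4 genes in red and the 18 other otoconial and membrane genes in grey. On the dotted line both arms changed equally. OTOL1 and TECTB lie farthest to the left, at -2.90 and -3.12, as the rows with ranks 2 and 1 by size of the control fall among all rows.

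Some markers of other cells also changed, not always in the direction of the 4 genes, and their part in these results was not tested. Over the 11 times 18.5% of all rows were called higher and 12.5% lower. Of 13 supporting cell markers 7 were called higher and none lower in the limma fit. Among them were the Notch target HES5 (1.52 ± 0.40) and the connexin gene GJB6 (1.22 ± 0.15). The median treatment difference of these markers was 0.32 at 0 and 24 h against 0.09 over all rows, and none of them was called there in the main fit. At 96 to 168 h it was 0.58 against 0.04 over all rows. There 5 were called higher (SOX9, HES5, LFNG, GJB6 and SLC1A3), against 9.65% of all rows. In controls the median change of these markers from the first to the last window was 0.09. The summed level of these markers ranged from 948 to 1492 RPKM in control and from 1114 to 1981 in treated samples at 0 and 24 h. At 96 to 168 h it ranged from 515 to 1235 in control and 992 to 2277 in treated samples. Of the 15 hair cell markers 9 rose and none fell in treated utricles from the first to the last window, against 13.3% and 20.3% of all rows. In controls 6 of them fell and none rose, against 12.2% and 7.24% of all rows. Because these are bulk samples, more cells of a type and more RNA per cell cannot be told apart.

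Of 11 stromal markers 8 were called higher over the 11 times, with a median of 0.59. In controls 5 of them rose from the first to the last window, against 7.24% of all rows, opposite to OTOL1 and TECTB. Their sum ranged from 44.5 to 295 RPKM in control and from 54.8 to 398 in treated samples at 0 and 24 h, and from 49.2 to 868 in control and 183 to 1245 in treated samples at 96 to 168 h. Of 5 cartilage markers tested 1, EPYC, was called higher over the 11 times (0.69 ± 0.17). Their median difference was -0.33 at 0 and 24 h and 0.36 at 96 to 168 h, and 0.90 for the change of the effect. Over all rows these medians were 0.09, 0.04 and -0.03. The sum of the 8 cartilage markers with a row lay between 5.27 and 49.8 RPKM in all samples, with MATN1 and HAPLN1 under 1 RPKM in every sample. At 0 and 24 h it ranged from 20.1 to 35.6 RPKM in control and from 7.94 to 21.2 in treated samples. Of the 10 leukocyte markers 5 were called higher and 2 lower over the 11 times. Of the 4 neuron and glia markers tested 1, SOX10, was called higher (0.60 ± 0.11), and of 2 erythroid markers tested 1, SPTB, was called lower (-0.39 ± 0.09). These counts stand beside 18.5% of all rows called higher and 12.5% called lower. None of the 6 tested markers of ion-transporting epithelium was called, and no listed marker with a row was at 0 in all samples. In the fit without control replicate 3 at 168 h the marker counts over the 11 times were the same except for leukocytes (4 higher and 1 lower) and cartilage (1 higher and 1 lower), and 6 stromal markers rose in controls. The share of all rows called in that fit is not given.

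Among the 11540 rows with a gene symbol, the levels most like OTOL1 over the 56 samples were those of COL2A1, with Pearson's r of 0.873, followed by EFHD1, ABLIM3 and SEMA7A (0.847). For TECTB the closest was COL11A1 (r = 0.915), followed by CLCA2, LMO7, CAP2 and GPSM2 (0.86). For TECTA it was TMPRSS9 (r = 0.937), followed by VWA5B1, LOC423523, LTBP2 and SPARC (0.877). For OTOA it was SLC38A4 (r = 0.893), followed by MMEL1, INPP5B, PLCH1 and ENPP1 (0.848). OTOGL, which encodes an otogelin-like protein of the same membranes, came at rank 11 for OTOA (0.837). Its r was lower with TECTB (0.603, rank 581), TECTA (0.351, rank 1805) and OTOL1 (0.29, rank 2948). For OC90 r was 0.68 with OTOA, 0.424 with TECTA, 0.406 with TECTB and 0.263 with OTOL1. For OTOP1, another listed gene, r was 0.5999 with OTOA, 0.296 with TECTA, 0.561 with TECTB and 0.153 with OTOL1. These values are descriptions over samples that share their libraries, time and treatment. Without control replicate 3 at 168 h they were 0.804 for COL2A1 with OTOL1, 0.904 for COL11A1 with TECTB, 0.913 for TMPRSS9 with TECTA and 0.846 for SLC38A4 with OTOA.

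**Figure D5:**
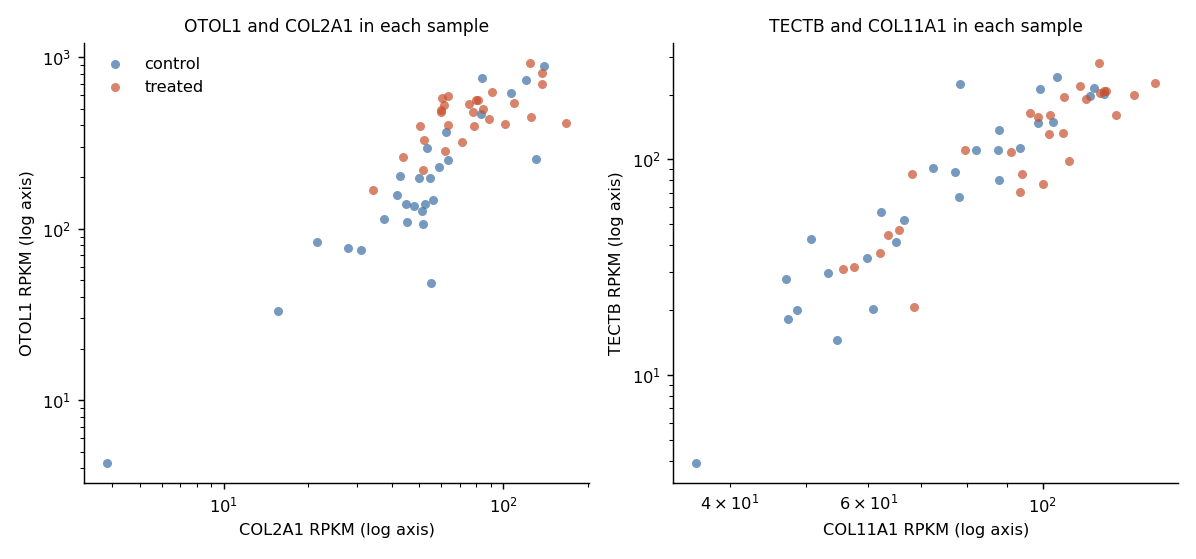
RPKM (log axes) of OTOL1 against COL2A1 and of TECTB against COL11A1 in each of 56 biological samples, control in blue and treated in red. Pearson's r of the log2 values was 0.873 and 0.915, and 0.804 and 0.904 without the sample at the lower left, control replicate 3 at 168 h.

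The likeness of the 4 genes to each other depended on whether time and treatment were left in. Over the levels, r was 0.694 for OTOL1 with TECTB and 0.671 for TECTA with OTOA, and 0.264 for TECTB with TECTA. These were 0.595, 0.511 and -0.0038 without control replicate 3 at 168 h. Over deviations from the 22 group means, which leave only differences between samples of one group, r was 0.816 for OTOL1 with TECTA and 0.79 for TECTB with OTOA, and 0.365 for OTOL1 with TECTB. These 3 values were 0.721, 0.723 and 0.131 without that control sample.

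By these deviations OTOL1 was most like ABLIM3 (r = 0.882), TMEM74, the Notch ligand gene DLL1 (0.871), F1NQ59_CHICK and MDK, and TECTB was most like LRP11 (0.877), INPP5B, GALNT11, MCOLN3 and SLC25A15. TECTA was most like TMPRSS9 (0.926), SPARC (0.919), C14H16orf79, MATN4 and COL8A2, and OTOA was most like SLC38A4 (0.901), KCNJ16, ABCC8, CHRDL1 and LMO7. The stromal collagen gene COL1A1 had r of 0.741 with the deviations of OTOL1 and 0.579 with those of TECTA, and its part in them was not tested. Its r was -0.049 with TECTB and -0.096 with OTOA. The supporting cell marker SOX2 had a like pattern, with r of 0.751 with OTOL1, 0.605 with TECTA, 0.0065 with TECTB and 0.016 with OTOA. Without control replicate 3 at 168 h the values of SOX2 were 0.729, 0.547, -0.178 and -0.176. Its part was not tested either. Leaving out control replicate 3 at 168 h, COL1A1 had r of 0.708 with OTOL1, 0.50 with TECTA, -0.257 with TECTB and -0.325 with OTOA, and the closest genes had 0.827 (ABLIM3), 0.841 (LRP11), 0.888 (TMPRSS9) and 0.866 (SLC38A4).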

How the data were processed

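Total RNA of whole utricles was taken with Trizol and made into libraries by Illumina protocols, per the labels' protocols. TopHat 1.4.0 and Partek 6.6 were used per the submitters' processing notes, and the genome build was not given in the sources used here. The authors deposited 1 table of 17684 gene rows, whose values were read as RPKM. No header states that unit: multiplied by the alignments of the library, 35.5% of 3598 low rows fell on whole steps (90% of values within 0.05), and 0% without it. Its 2 columns that match no sample were not used. The 60 libraries are 56 biological samples, 4 of them with 2 libraries, which were averaged on the log2 scale; the labels do not say how many birds each holds, and p-values reflect only variation among these samples, which may be technical.

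Rows of at least 1 RPKM in at least 2 libraries (13862) were fitted with limma 3.58.1 in R 4.3.3 on log2(RPKM + 0.5), as 22 group means with 34 residual degrees of freedom, a trended prior and Benjamini-Hochberg adjustment over all rows; called means an adjusted p under 0.05. Fold changes are on the log2(RPKM + 0.5) scale. Windows weight their times equally. Same-numbered treated and control samples deviated together: at the times with 3 or more pairs r was 0.117 to 0.71 in 16 pairs. Of these, 15 correlated best with their own number. Replicate 1 at 24 h had r of 0.117 with its own number and 0.123 with another. At the 6 times with 2 pairs both pairs have the same r by construction, and the lowest was 0.0754. The labels do not state the pairing, and a fit with the 28 pairs as a block was run beside the main one. The scripts were tested on simulated data. Alternatives were other pseudocounts, filters, scalings, trend settings, repeat libraries kept apart, libraries under 5000000 alignments left out, and each sample and each replicate number left out. Leaving out a replicate number left 1 sample in some groups, so a call lost there need not mean a smaller difference. Besides the 4 genes, every gene of a list is named where 5 or fewer were called, otherwise up to 4 with the largest mean difference, and for likeness the 5 with the highest r, of which 1 is not reported here. The genes, lists and tests were chosen with earlier results of these data known. The higher mean of OTOL1 in treated samples was among those, so it is not independent support. No sequence is shown.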

Additional observations from a re-analysis of the deposited data

Results flagged for a closer look

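The treatment effect differed between the first and the last window for each of the 4 genes, by a test of the difference itself in the limma fit. It was higher at 96 to 168 h than at 0 and 24 h by 2.82 for OTOL1, 1.92 for TECTB, 1.80 for TECTA and 1.58 for OTOA on the log2 scale. Without control replicate 3 at 168 h the differences were 2.45, 1.76, 1.51 and 1.397, and all 4 remained called. The calls were lost without the samples numbered 1 or 2, in fits that left 1 sample in some groups. The differences were then 2.56, 1.85, 1.65 and 1.45 without number 1, and 3.37, 2.12, 2.30 and 1.92 without number 2. The OTOA call was also lost without those numbered 3 (difference 1.36). Without treated replicate 1 at 0 h the calls of TECTA (difference 1.56) and OTOA (1.28) were lost. The treated sample was the lower one in 4 of 6 pairs for OTOL1 and in 6 of 6 pairs for each of the others at 0 and 24 h, and the higher one in 11 of 11 pairs for OTOL1, TECTB and OTOA and in 9 of 11 for TECTA at 96 to 168 h.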

How the results depend on the processing

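With a pseudocount of 0.1 or 1, or with the filter at 30 libraries, each of 88 results on the 4 genes kept its direction and its side of the threshold. Under trimmed-mean scaling 87 did, and TECTA at 24 h was called (-1.33, adjusted p = 0.0383). With no filter on low values TECTA at 96 to 168 h (0.78, adjusted p = 0.0544) and the OTOL1 control fall from the middle to the last window (-1.14, adjusted p = 0.0665) were no longer called, and that fall also missed the threshold without a trended prior (-1.14, adjusted p = 0.0511). Under quantile normalization TECTA at 0 and 24 h was called (-1.06, adjusted p = 0.0453), the F statistic of TECTB was not (3.68, adjusted p = 0.0742), TECTA at 24 h (-1.26, 0.0434) and OTOL1 at 96 h (2.30, 0.0206) were called, TECTB at 168 h was not (1.43, 0.0705), and uncalled values changed sign for TECTA in controls from the first to the middle window (0.083) and for OTOL1 in treated samples (0.028). With the replicate block TECTA at 0 and 24 h (-1.02) and the F statistic of OTOL1 (4.89) were called, besides single times given above, and no other call on the 4 genes changed. With repeat libraries kept apart TECTB (-0.82) and TECTA (-1.10) at 0 and 24 h and the control F statistic of OTOA (3.12) were called, as were TECTA at 24 h (-1.24), OTOL1 at 96 h (2.21) and 120 h (1.99) and TECTB at 120 h (1.21). Without libraries under 5000000 alignments the OTOL1 control falls (-1.62 and -1.18), its control F statistic (3.22) and the F statistic of TECTB (4.51) and OTOL1 at 168 h (3.52, adjusted p = 0.0572) were not called, and the control F statistic of OTOA was (3.73). The cause of these changes was not tested, beyond the fewer samples of the last fit.

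Leaving out 1 sample or 1 replicate number gave ranges, on the log2 scale, in which a call or a direction changed at some fit. The mean effect ranged from 0.58 to 0.90 for TECTB and 0.43 to 0.77 for OTOA. The effect at 0 and 24 h ranged from -0.97 to -0.44 for TECTB and -1.29 to -0.72 for TECTA. That at 48 to 72 h ranged from 1.29 to 1.68 for OTOL1, 0.65 to 1.01 for TECTB and 0.37 to 0.71 for OTOA, and that at 96 to 168 h from 0.41 to 1.02 for TECTA. Its change between these windows ranged from 2.44 to 3.37 for OTOL1, 1.69 to 2.16 for TECTB, 1.33 to 2.30 for TECTA and 1.28 to 1.92 for OTOA. The effect at 0 h ranged from -1.03 to 0.26 for OTOL1 and -1.18 to 0.041 for OTOA. At 48 h it ranged from -0.0092 to 1.23 for OTOL1, -0.57 to 0.36 for TECTB, -1.49 to 0.051 for TECTA and -0.44 to 0.30 for OTOA, and at 60 h from -0.35 to 0.29 for TECTA and -0.20 to 0.79 for OTOA. The control change from the first to the middle window ranged from -2.08 to -1.44 for OTOL1, -1.15 to -0.73 for TECTB and -0.16 to 0.047 for TECTA. From the middle to the last window it ranged from -1.56 to -0.61 for OTOL1, -0.51 to 0.13 for TECTA and -1.30 to -0.69 for OTOA, and from the first to the last from -0.65 to 0.18 for TECTA. The treated change ranged from -0.31 to 0.14 for OTOL1, -1.43 to -0.96 for TECTB, 1.001 to 1.77 for TECTA and 0.76 to 1.43 for OTOA. The F statistic of treatment by time ranged from 1.05 to 4.81 for OTOL1, 2.71 to 5.91 for TECTB and 1.26 to 4.23 for TECTA, and that of the control times from 2.48 to 9.99 for OTOL1 and 1.49 to 3.60 for OTOA.

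Counts over all rows moved more than those of the 4 genes. With the pairs as a block the rows called rose from 1768 to 3201 at 0 and 24 h, from 2322 to 3761 at 96 to 168 h, from 1156 to 2612 for the change of the effect and from 205 to 578 in the F test. With repeat libraries kept apart they were 3142 at 0 and 24 h, 2219 for the change of the effect, 2419 for the control change to the middle window (1107 with them averaged), 568 and 1905 (896) in the F tests. Of the rows called, 59.7% were higher for the mean effect as deposited and 49.5% under trimmed-mean scaling. At 0 and 24 h these shares were 53.1% and 41.1% (41.0% under quantile normalization), and at 96 to 168 h 57.6% and 46.1%. With 2 to 4 samples a group, effects at a single time are the least certain.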
